A study of Mus musculus with 4 samples.

Results

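Actins, actin-related proteins and a set of actin-binding proteins were examined in mouse embryonic stem (ES) cells after inhibition of FGFR, MEK or GSK. Genes were chosen by symbol alone: those that begin with Acta, Actb, Actc, Actg, Actl, Actn or Actr, with Abi, Abl, Abra, Add or Afap and a digit, or with Ablim. The symbols come from supplementary tables of the study, of which only a part was used here, and 28 genes were found among 5622 genes with a symbol and 25030 genes on the array. Each of the 28 was represented by its probe in the deposited table of processed values, and 9 had a second probe on the array. Other genes of these families were not analysed here, and no muscle actin was among the symbols used.

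Actin is a protein that polymerizes into filaments, which give a cell its shape and let it move and divide. The cytoplasmic actins are made in every cell, and alpha-actinins, adducins, actin-binding LIM proteins and AFAP proteins bind or cross-link the filaments. Actin-related proteins share the actin fold but have other tasks: some nucleate branched filaments in the Arp2/3 complex, some form the short filament of dynactin that links dynein to its cargo, and some work in the nucleus as subunits of chromatin remodelling complexes. Abl kinases and their Abi adaptors pass signals from the cell surface to actin assembly.

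The cells were male ES cells of the line B6R(5), of C57BL/6 background, plated 24 hr before treatment and harvested 48 hr after it. All cultures received 0.2% DMSO, which the control culture received alone, and the others also received the FGFR inhibitor PD173074, the MEK inhibitor PD98059 or the GSK inhibitor BIO. The doses were 100, 25 and 2 in this order, in μM by the methods and in mM by the list of data sets. Each condition had 1 array of the NIA 44K mouse design, with ES cell RNA in Cy3 and Universal Mouse Reference RNA, a pool of mouse cell lines that includes fibroblasts and myoblasts, in Cy5 by the labels. The methods describe, for arrays of organs in the same study, a reference in which RNA of MC1 cells was mixed with this pool, and say of the inhibitor cultures only that RNA was handled in the way given before, so that this mixture may be the reference here. There is no replicate check of any difference below, and no p-value is given.

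Values are log2 ratios of Cy3 to Cy5 after background correction and loess normalization. The difference between an inhibitor array and the control array in this ratio is called the log2 fold change. A gene counts as measured in a comparison where the scanner software flagged Cy3 as well above background on both arrays, and as changed where the difference also reached 1 on the log2 scale, which is 2-fold. Dyes were not exchanged, so a ratio to the reference is open to dye bias, of which a constant part cancels in differences between arrays. All 3 comparisons use the same control array. Cy3 was well above background for 16923 to 17427 genes per array. Of the 14 ES cell markers listed, 4 had a symbol (Prdm14, Tcfcp2l1, Gbx2 and Nr5a2), and Cy3 of each passed the background flag on every array.

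The probes on which the results below rest have 60 bases each, and the first 30 bases are shown 5′ to 3′, without capitals because no part of them is singled out. They are shown for the gene that changed, for both adducins and for both cytoplasmic actins. The adducins and actins have pairs of probes for the same gene, main probe first. The position and strand of the probes in their genes were not determined, so each probe, that of Actn3 included, is tied to its gene by the symbol in the tables alone. The main probe of Add1 may read opposite to the coding strand.
Actn3, probe Z00052253-1: gagagagtgacctctgacattctccgtgga
Add1, probe Z00061249-1: ttcaggcgctcatagttgatcttactgggg
Add1, probe Z00036705-1: agagtccgttctaaaactttctttcagcag
Add3, probe Z00074892-1: cctttcgctaacgcttctctttacttgctt
Add3, probe Z00022071-1: aagaaaagatttgtctgggtttttactcat
Actb, probe Z00058562-1: taggcggactgttactgagctgcgttttac
Actb, probe Z00022939-1: cttttgactcaggatttaaaaactggaacg
Actg1, probe Z00030576-1: tttggttttctactgttcaatgagaacatt
Actg1, probe Z00033442-1: tggatcagcaagcaggagtatgatgagtca

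Of the 28 genes, 1 changed at least 2-fold in any comparison: Actn3 was lower under GSK inhibition. On every array Cy3 passed the background flag for 26 genes, which are the genes measured in each comparison. No gene changed under FGFR inhibition, where 1.39% of the 16794 genes measured did, or under MEK inhibition, where 0.0832% of 16834 did. Both counts depended on the processing. Under FGFR inhibition 1 gene was 2-fold higher with an offset of 16, without background subtraction, with processed signals and with the deposited table, where 0.988%, 0.846%, 2.08% and 2.08% of all genes were higher, against 0.798% in the main setting. Under MEK inhibition 1 was higher with processed signals and with the deposited table, where 0.725% and 0.719% of all genes were, against 0.0416%. Under GSK inhibition 1 of 26 changed, and 1.43% of 16465 genes did. Genes that were lower made up 0.741% of the 16465. A count of 1 in 26 is too small to set the group apart from these shares.

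Most of the remaining values were small. The log2 fold changes of the 26 genes had a median of -0.004, 0.04 and 0.04 under FGFR, MEK and GSK inhibition, and those of all genes measured had one of -0.02, -0.01 and -0.003. The median size, without sign, was 0.19, 0.13 and 0.15 for the 26 genes and 0.14, 0.11 and 0.16 for all genes. At a lower threshold of 1.5-fold, 3 of the 26 passed under FGFR inhibition, where 5.70% of all genes did. All 3 were higher, as were 2.77% of all genes, and 0 were lower, against 2.93%. Under MEK inhibition 0 passed, against 1.06% of all genes. Under GSK inhibition 4 of 26 passed, against 6.54% of all genes, with 2 higher against 3.01% and 2 lower against 3.53%. Add3 and Afap1 were among those under FGFR inhibition, and those under GSK inhibition were Add1, Add3, Actn3 and Actr3b.

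**Figure D1:**
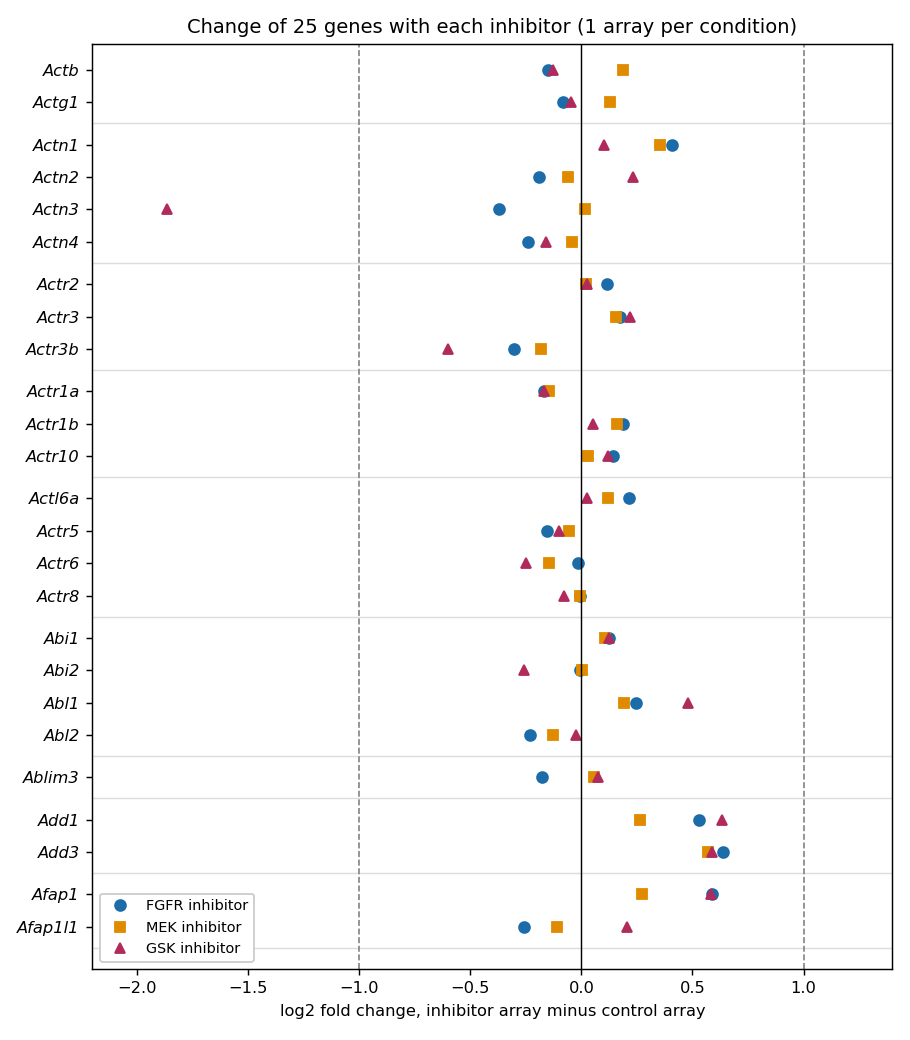
Log2 fold change of 25 of the measured genes on the inhibitor arrays against the control array, 1 array per condition, with genes grouped by role and dashed lines at 2-fold. Actl7b and Afap1l2, near background, are not plotted, and the point for Actn3 under GSK inhibition, at -1.86, is the only one beyond a dashed line.

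**Figure D2:**
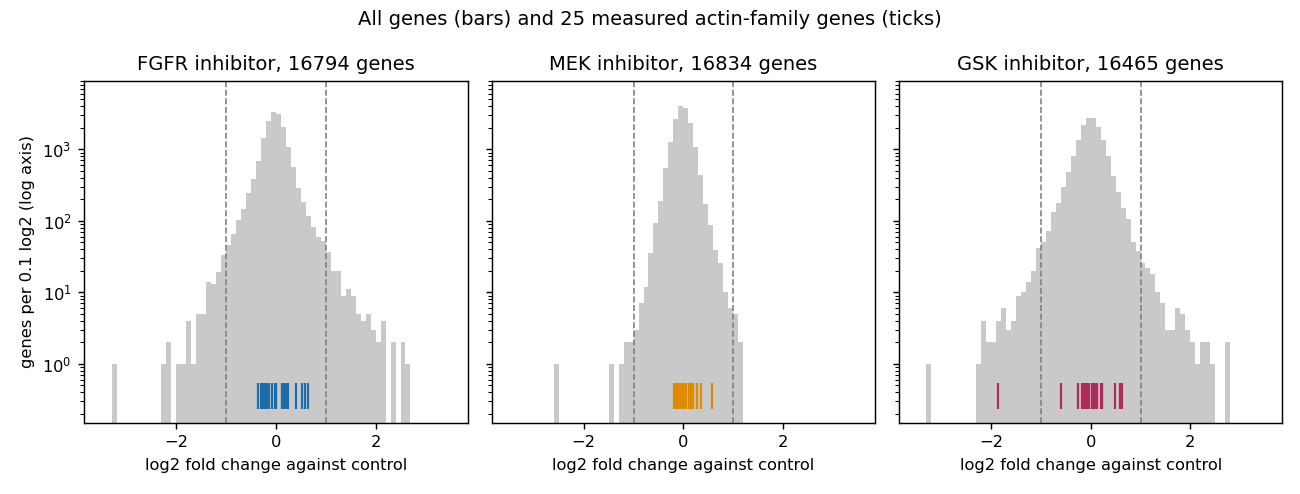
Number of genes in steps of 0.1 of the log2 fold change (bars, log axis) for all genes measured in each comparison, with 25 of the measured genes of the actin group as ticks and dashed lines at 2-fold. The tick for Actn3 under GSK inhibition is the only one beyond a dashed line.

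The cytoplasmic actins, Actb for beta-actin and Actg1 for gamma-actin, are the subunits of filaments in nonmuscle cells. For Actb, the log2 ratio to the reference was -1.34 in the control, -1.49 under FGFR inhibition, -1.15 under MEK inhibition and -1.47 under GSK inhibition. For Actg1, the log2 ratio was -1.06 in the control, -1.14 under FGFR inhibition, -0.93 under MEK inhibition and -1.11 under GSK inhibition. In both genes the array for MEK inhibition had the highest ratio. Processed Cy3 of Actg1 was however highest in the control, at 381825 against 373762 under MEK inhibition. The log2 fold changes of Actb were -0.15, 0.19 and -0.13 under FGFR, MEK and GSK inhibition, and those of Actg1 were -0.08, 0.13 and -0.05. Genes with a like Cy3 signal spread around the median of their group with a robust SD of 0.21, 0.16 and 0.22. This measure contains real changes and error alike. In size, all of these values are below that SD but the one for Actb under MEK inhibition, which exceeds it slightly.

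The second probe of Actb did not give the same ratio to the reference. Its log2 ratio was 0.62 in the control, 0.50 under FGFR inhibition, 0.60 under MEK inhibition and 0.54 under GSK inhibition, on the opposite side of the reference from the main probe on every array. With median centring it lay between -0.0023 and 0.18, at about the level of the reference. Its log2 fold changes were -0.12, -0.02 and -0.08, without the higher value under MEK inhibition. Processed Cy3 was between 265759 and 316320 at the main probe and between 603 and 720 at the second, and whether the second probe reads the Actb transcript was not tested. With Cy3 alone, without the reference, the value of Actg1 under MEK inhibition was -0.03 at its main probe and 0.16 at its second probe. The second probe of Actg1 had a log2 ratio between -0.81 and -0.45 and log2 fold changes of -0.12, 0.12 and -0.24. The coding sequences of the actin genes are closely similar, and which actin transcripts bound to each probe was not tested.

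Alpha-actinins are rod-shaped proteins that cross-link actin filaments. Actn1 and Actn4 are the nonmuscle forms, Actn2 is the form of cardiac and skeletal muscle, and Actn3 is that of fast skeletal muscle fibres. The log2 ratio of Actn3 to the reference was 0.36 in the control, -0.01 under FGFR inhibition, 0.38 under MEK inhibition and -1.50 under GSK inhibition. The array for GSK inhibition stands apart, and the other 3 span less than 0.4. Under GSK inhibition Actn3 was 3.64-fold lower than in the control, and the log2 difference of GSK inhibition was -1.49 to FGFR inhibition and -1.88 to MEK inhibition. The size of the fall against the control was exceeded by 0.158% of the genes measured in that comparison, and the robust SD at this signal was 0.29. In RNA of a whole culture, fewer cells with a transcript and less of it per cell cannot be told apart.

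The difference lies in the channel of the ES cells. In processed signal, Cy3 of Actn3 was 3361 in the control, 2607 under FGFR inhibition, 3626 under MEK inhibition and 704 under GSK inhibition. Cy5, which holds the same reference RNA on each array, was between 2040 and 2403. With Cy3 alone, without the reference, the log2 fold change was -2.07 under GSK inhibition. The array had 1 probe for Actn3 with a symbol, so the fall has no second probe beside it.

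None of the other 3 alpha-actinins was 2-fold lower on that array. The log2 ratio of Actn2 was 0.50 in the control, 0.31 under FGFR inhibition, 0.44 under MEK inhibition and 0.73 under GSK inhibition, so that this array was its highest. Actn4 had log2 ratios of 0.59, 0.35, 0.55 and 0.43 in the same order, and log2 fold changes of -0.24, -0.04 and -0.16. Its second probe, which shares a run of 53 bases with the first and is therefore hardly an independent measurement, gave -0.11, 0.13 and -0.04. Actn1 had log2 ratios of -1.40 in the control, -0.99 under FGFR inhibition, -1.05 under MEK inhibition and -1.30 under GSK inhibition. It was higher on the arrays for FGFR and MEK inhibition, by 0.41 and 0.35 on the log2 scale, and close to the control under GSK inhibition, by 0.10. With Cy3 alone the last value was -0.08, so that its sign depended on the processing.

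On the array where Actn3 fell, no measured marker of skeletal muscle passed the 2-fold threshold, and 1.43% of all genes measured did. With 5 markers measured, the lack of a change cannot be set apart from that share. Of 15 genes listed, among them Myog, Des and Tnni1, 11 had a symbol, 5 were well above background on all 4 arrays and 3 on none. Myog, a defining transcription factor of muscle, was well above background on 2 arrays, and Myl1 and Mstn, a myosin light chain and a growth factor of muscle, on none. The summed processed Cy3 signal of the 11 was between 899 and 959 on the 4 arrays. Under GSK inhibition the log2 fold changes of the 5 measured in that comparison ranged from -0.34 to 0.01. The lowest was that of Des (desmin), an intermediate filament of muscle, and it depended on the processing, at -0.77 with processed signals. Processed Cy3 of Des was 213 in the control, 122 under FGFR inhibition, 179 under MEK inhibition and 119 under GSK inhibition. In the summed signal this was offset by Tnni1, a troponin of slow fibres, at 412 in the control and 522 under GSK inhibition. Cy5 of Tnni1 was higher there as well, at 1310 against 1083 in the control. As a ratio Tnni1 did not rise, with a log2 fold change of -0.004. The part of the muscle markers in the Actn3 value was not tested.

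**Figure D3:**
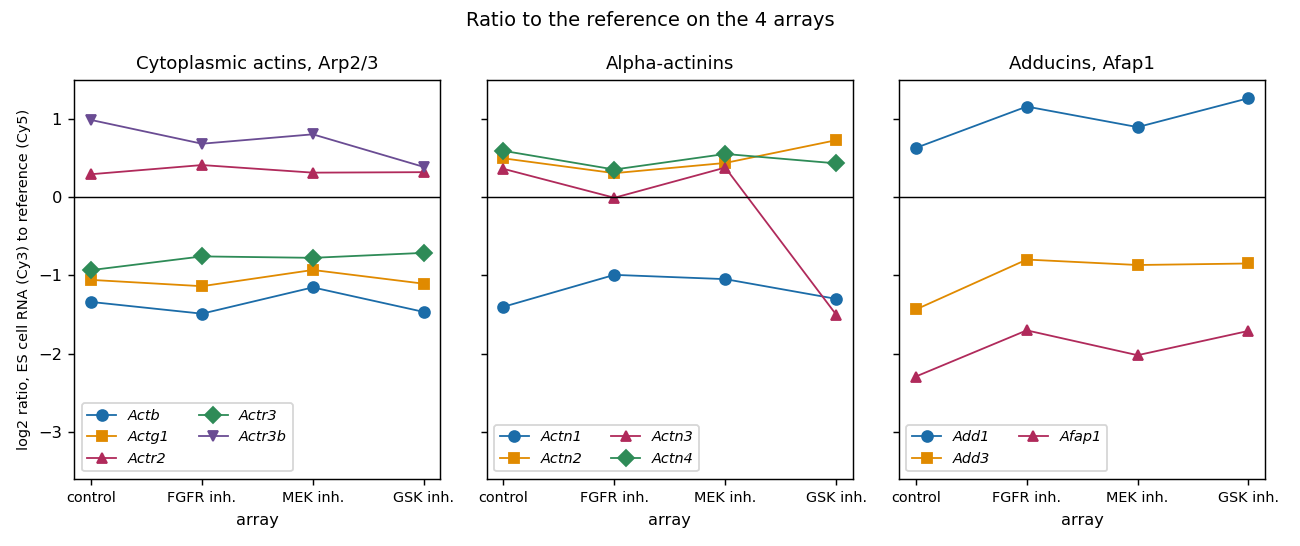
Log2 ratio of ES cell RNA to reference RNA on the 4 arrays for 12 genes of the actin group; lines join the values of 1 probe and do not stand for a time course. Actn3 is near the reference on 3 arrays and at -1.50 under GSK inhibition. Add1, Add3, Afap1, Actn1, Actr2 and Actr3 are lowest in the control, and Actn4 and Actr3b are highest there.

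The Arp2/3 complex starts new filaments as branches on existing ones, and Actr2 and Actr3 are its actin-related subunits, with Actr3b as a paralog of Actr3. For Actr2 the log2 ratio was 0.29 in the control and 0.41, 0.31 and 0.32 under FGFR, MEK and GSK inhibition. For Actr3 it was -0.93 in the control and -0.76, -0.78 and -0.71 on the others. The log2 fold changes of these genes, from 0.02 to 0.22, lay within the robust SD of 0.15 to 0.27 at their signal or, for Actr3 under MEK inhibition, at 0.16, just beyond it. The second probe of Actr3 gave -0.005 in that comparison. Actr3b differed from its paralog. Its log2 ratio was 0.99 in the control, 0.68 under FGFR inhibition, 0.80 under MEK inhibition and 0.39 under GSK inhibition. The control array was the highest and the array for GSK inhibition the lowest, with a log2 fold change of -0.60 that 6.16% of the genes measured exceeded in size. The log2 difference of Actr3b under GSK inhibition was -0.30 to FGFR inhibition and -0.42 to MEK inhibition.

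The actin-related proteins of dynactin, Actr1a and Actr1b (Arp1) and Actr10 (Arp11), stayed close to the control. Their log2 fold changes ranged from -0.17 to 0.19 over the 3 comparisons. Actr1a had log2 fold changes of -0.17, -0.15 and -0.17, and its inhibitor arrays differed by at most 0.02 from each other. The second probe of Actr10 lay on the other side of the reference, at 0.73 against -0.25 in the control, but its log2 fold changes of 0.16, -0.05 and 0.06 differed by at most 0.08 from those of the main probe.

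Of the nuclear actin-related proteins, Actl6a (BAF53a) is a subunit of the BAF, INO80 and TIP60 complexes, Actr5 and Actr8 belong to INO80 and Actr6 belongs to SRCAP. All 4 were above the reference on every array, with log2 ratios from 1.69 to 1.91 for Actl6a, 1.17 to 1.32 for Actr5, 0.65 to 0.90 for Actr6 and 0.42 to 0.50 for Actr8. Their log2 fold changes ranged from -0.25, for Actr6 under GSK inhibition, to 0.21, for Actl6a under FGFR inhibition. Actr6 had log2 ratios of 0.90 in the control, 0.88 under FGFR inhibition, 0.75 under MEK inhibition and 0.65 under GSK inhibition. Each value of these 4 genes was within the robust SD at its signal, apart from Actl6a under FGFR inhibition, at 0.21 against 0.207. Actl7b, an actin-like protein of the testis, was well above background in Cy3 on the arrays for FGFR and MEK inhibition, as in Cy5. Its processed Cy3 signal was 22.2 in the control, 36.9 under FGFR inhibition, 32.2 under MEK inhibition and 28.2 under GSK inhibition, and Cy5 was 11.2, 20.2, 27.0 and 14.3 in the same order. Both channels were lowest in the control, and no fold is given for signals this near to background.

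Adducins cap the fast-growing ends of actin filaments and tie them to spectrin under the membrane, and Add1 and Add3 encode the alpha and gamma forms. The log2 ratio of Add3 was -1.44 in the control, -0.80 under FGFR inhibition, -0.87 under MEK inhibition and -0.85 under GSK inhibition. The control array was apart from the inhibitor arrays, which spanned 0.07. Add3 had log2 fold changes of 0.64, 0.57 and 0.59 under FGFR, MEK and GSK inhibition, short of the 2-fold threshold each time. Of all genes measured, 2.37%, 0.659% and 2.96% had a higher log2 fold change. As these values share the control array, they are not 3 separate measurements of a difference.

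Add1 had a log2 ratio of 0.63 in the control, 1.16 under FGFR inhibition, 0.89 under MEK inhibition and 1.26 under GSK inhibition. The control array was again the lowest. Add1 had log2 fold changes of 0.53, 0.27 and 0.64, at a robust SD of 0.23, 0.16 and 0.29, with the doubt about the strand of this probe given above. Both adducins had a second probe, and it gave a higher value than the control on each inhibitor array as well. The log2 fold changes at the second probe were 0.46, 0.18 and 0.49 for Add1 and 0.31, 0.30 and 0.40 for Add3. Those of Add3 were smaller than at its main probe, by 0.33, 0.27 and 0.19. Under all alternatives tried, values were above 0 for both adducins in each comparison.

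AFAP proteins bind actin filaments and Src family kinases. Afap1 had log2 ratios of -2.29 in the control, -1.70 under FGFR inhibition, -2.02 under MEK inhibition and -1.71 under GSK inhibition, the control array being the lowest. Its log2 fold changes were 0.59, 0.27 and 0.58. Afap1l1 was above the reference on all arrays, at 1.51 to 1.97, with the lowest value under FGFR inhibition and the highest under GSK inhibition. Afap1l2 was well above background in Cy3 under FGFR inhibition alone. Its processed Cy3 signal was 13.7 in the control, 39.2 under FGFR inhibition, 18.0 under MEK inhibition and 16.5 under GSK inhibition, and no fold is given for it either.

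The control array had the lowest ratio for Add1, Add3, Afap1 and Actn1, and also for Actr2, Actr3, Actr1b, Actr10, Actl6a, Abi1 and Abl1. It had the highest for Actn4, Actr3b, Actr1a, Actr5, Actr6, Actr8 and Abl2. Of the ES cell markers, Tcfcp2l1 and Nr5a2 were lowest and Gbx2 was highest in the control. The share of all genes with either order was not determined. The control array was also the lowest for Fn1 (fibronectin), a matrix protein on a list of smooth muscle or fibroblast markers. Its log2 ratio was -1.72 in the control, -1.33 under FGFR inhibition, -1.34 under MEK inhibition and -1.37 under GSK inhibition, with log2 fold changes of 0.40, 0.38 and 0.36 at a robust SD of 0.20, 0.15 and 0.25. Of 12 genes listed, 10 had a symbol, 6 were well above background on all 4 arrays and 2 on none. None changed 2-fold, and so few genes cannot be set apart from the background shares given above. Col3a1, a fibrillar collagen, had log2 fold changes of -0.16, -0.25 and -0.08. The summed processed Cy3 signal of the 10 was 22748 in the control and between 32638 and 32933 on the inhibitor arrays, most of it from Fn1. The part of these markers in the values of the actin group was not tested.

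Ablim3 encodes an actin-binding LIM protein, which carries zinc-binding LIM domains and a villin headpiece. Its log2 ratio was -0.47 in the control, -0.65 under FGFR inhibition, -0.41 under MEK inhibition and -0.40 under GSK inhibition, the array for FGFR inhibition being the lowest. Ablim3 had log2 fold changes of -0.18, 0.06 and 0.07. The spot was dim, with processed Cy3 between 33.2 and 67.8, and the offset of 50 in the background correction draws the changes of dim spots toward 0. With processed signals the values were -0.91, 0.20 and -0.31, so that the sign under GSK inhibition depended on the processing. Its second probe was not well above background on any array.

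Abl1 and Abl2 are tyrosine kinases that regulate actin through adaptors such as Abi1 and Abi2, which are also subunits of the WAVE complex. Their log2 fold changes ranged from -0.26, for Abi2 under GSK inhibition, to 0.48, for Abl1 under GSK inhibition. Abl1 had log2 ratios of -1.14 in the control, -0.89 under FGFR inhibition, -0.94 under MEK inhibition and -0.66 under GSK inhibition, and 4.65% of genes had a higher value in the last comparison. Abl2 was above the reference on all arrays, at 1.13 to 1.36, and both Abi genes were below it, with the lowest ratio, -1.26, for Abi2 under GSK inhibition.

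Across the 8 genes whose second probe was well above background on all 4 arrays, changes at both probes of a gene were set side by side. The largest difference in log2 fold change between the probes of a gene was between 0.08 and 0.33, with a median of 0.16, and 19 of 24 values had the same sign. The exceptions to the same sign, Abi1, Actb, Actn4, Actr10 and Actr3, were all in the comparison under MEK inhibition and had a size of at most 0.19. In that comparison most of the 8 genes thus had probes of opposite sign. For the ratio to the reference, 6 of 8 genes had both probes on the same side of the reference in the control, and Actb and Actr10 did not.

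**Figure D4:**
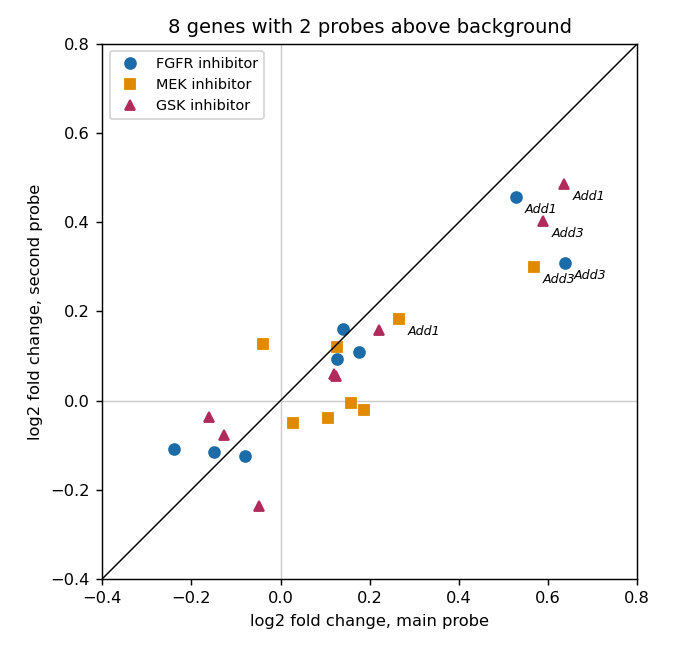
Log2 fold change against control at the second probe (vertical axis) and the main probe (horizontal axis) of 8 genes, 3 comparisons each; the diagonal marks equal values. The points of Add1 and Add3, labelled, are the highest at both probes and lie below the diagonal.

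Relative to the reference, 8 of 27 genes with a signal differed at least 2-fold on all 4 arrays, where 31.0% of 18648 genes did. The brighter channel had to be well above background for this count. Abl2, Actl6a, Actr5 and Afap1l1 were above the reference, as were 13.6% of all genes, and Abi1, Abi2, Actb at its main probe and Afap1 were below it, as were 17.5%. In the main setting the share was thus near that of all genes. The split depended on the processing: with median centring 1 gene was above and 9 were below, where 7.92% and 24.4% of all genes were. With processed signals 4 were above and 2 below, where 22.5% and 23.8% were. In that setting 6 genes passed in either direction, where 46.3% of all genes did, so the share was lower than that of all genes. Actg1 passed on 3 arrays and had -0.93 on the array for MEK inhibition.

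Genes that work next to actin were taken from 7 lists of 112 genes in all, and 49 of these had a symbol. In each comparison 47 were measured and 0 changed at least 2-fold, at the background shares given above. In the Arp2/3 list, Arpc2, Arpc5 and Arpc5l are subunits of the complex and had log2 fold changes from -0.08 to 0.30, and Wasl (N-WASP), which activates it, had the largest value of all partners under GSK inhibition, 0.52. Of the genes that bind or cap actin, Pfn1 (profilin), which binds actin monomers and promotes their exchange of nucleotide, had -0.16, 0.05 and 0.16 under FGFR, MEK and GSK inhibition. Cfl1 (cofilin), which severs filaments, had the lowest partner values under FGFR and MEK inhibition, -0.27 and -0.24, and 0.26 under GSK inhibition. The capping protein genes Capza1 and Capzb ranged from 0.01 to 0.29.

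Among genes of filament binding and adhesion, Tns1 (tensin), which links actin to integrins, had the highest partner values under FGFR and MEK inhibition, 0.68 and 0.41. Dst (dystonin), a linker between cytoskeletal filaments, had the lowest under GSK inhibition, -0.58. The 5 genes on a list of small GTPases and their effectors ranged from -0.14 to 0.50, where the highest was Rhoa under GSK inhibition. The 9 subunits of the CCT chaperonin and prefoldin, which fold actin, ranged from -0.26 to 0.29. The 2 dynactin subunits and the 7 subunits of chromatin complexes had values from -0.06 to 0.21 and from -0.24 to 0.36.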

How the data were processed

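ES cell RNA was labelled with Cy3 and the common reference with Cy5, on 4 arrays, 1 for each condition, as the labels give it. The scanner files deposited were made by the authors with Feature Extraction 9.5.1.1 and hold mean and background intensity per spot, not normalized, and processed intensity with flags. A table deposited beside them holds log10 values: judged by its numbers, the log10 of processed Cy3 over Cy5, to which the average log10 Cy5 of the 4 arrays was added.

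From mean intensity and median background, normexp with an offset of 50 was run in limma 3.58.1 (R 4.3.3) on all 43451 spots. The 1417 control spots and 3 or 4 outlier spots per array were left out, loess was run on the ratios of each array, and the 42006 probes were summarized by the average of their spots. The steps were tested on simulated data. Robust SDs come from the median absolute deviation in 20 groups of genes by Cy3 signal. Counts and figures were made in Python 3.11.15 with numpy 2.4.6, pandas 2.3.3 and matplotlib 3.10.9.

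Symbols came from 5 supplementary tables, held in part, joined on probe name. The members, lists and thresholds were chosen with earlier results of these data known. Values on each array are given for actins, alpha-actinins, Arp2/3 subunits, genes changed 2-fold and the 2 largest rises and falls per comparison; Abl1, Afap1 and Ablim3, and the signals of Actl7b and Afap1l2, were added after their values were seen. Named partners are the highest and lowest per comparison and Cfl1, Pfn1, Capza1, Capzb and the Arpc genes; Rhoa, and the markers Des, Tnni1, Fn1 and Col3a1, were added after their values were seen. The values of 1 gene are not reported here, and it is included in the counts. Genome positions are left out because the scanner files map no probe. Precision is limited by having 1 array per condition. Alternatives included a normexp offset of 16, omission of background subtraction, processed signals, median centring, Aquantile, Cy3 alone, the deposited table, no filter, a filter on both channels, 1.5-fold and 4-fold thresholds, and the second probe.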

Additional observations from a re-analysis of the deposited data

How the results depend on the processing

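The count of 1 gene of the actin group changed 2-fold under GSK inhibition became 4 at 1.5-fold and 0 at 4-fold. It was the same under every other alternative run for it. The second probe was not among them, as Actn3 had none with a symbol. The share of all genes at 4-fold was not determined. Under FGFR inhibition the count of 0 became 1 with an offset of 16, without background subtraction, with processed signals and with the deposited table, and 3 at 1.5-fold. Under MEK inhibition it became 1 with processed signals and with the deposited table, where 1.54% of all genes changed in either direction, against 0.0832% in the main setting; under FGFR inhibition the share was 4.31% with both and 1.39% in the main setting. The partner count under FGFR inhibition became 1 at 1.5-fold. The count of 8 genes at least 2-fold from the reference became 15 at 1.5-fold and 0 at 4-fold. The shares of all genes at these thresholds were not determined, so both counts lack a background to be read against. It became 10 with median centring (1 above, 9 below) and 6 with processed signals (4 above, 2 below), where 32.3% and 46.3% of all genes were. Cy3 alone and the deposited table can give no such ratio. Log2 fold changes beyond 1.5-fold, 5 in number among the genes with values on each array by the naming rule, kept their sign in all 28 recalculations, without Aquantile, which leaves log ratios as they are, and the deposited table, which repeats the processed signals. Actn3 under GSK inhibition ranged from -2.08 to -1.82, Actr3b from -0.71 to -0.50, Add1 under GSK inhibition from 0.49 to 0.72 and Add3 under FGFR inhibition from 0.31 to 0.69. Without both, 187 of 198 recalculated values of the genes named by that rule moved by less than the robust SD. Median centring shifted the median of all genes under MEK inhibition to 0.10. No paired analysis was possible because there was 1 array per condition, and none could be left out. Dim spots such as those of Ablim3, Actl7b and Afap1l2 limit what can be said of them.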
